A study of Mus musculus with 48 samples.

Results

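A set of 9 genes for adhesion proteins that astrocytes place at synapses was followed in ribosome-bound mRNA of the mouse dorsal hippocampus. They were the neuroligins Nlgn1, Nlgn2 and Nlgn3, the immunoglobulin-type adhesion genes Nrcam, Ncam1 and Cadm1, the IgLON genes Lsamp and Ntm, and the ephrin gene Efnb3. They were taken by symbol, and all 9 were found among the 47643 Ensembl genes counted. Every mouse carried the transgene Aldh1l1:L10a-eGFP, in which the astrocyte promoter of Aldh1l1 drives a ribosomal protein fused to a fluorescent protein. In translating ribosome affinity purification (TRAP), these tagged ribosomes are captured on an antibody together with the mRNA they hold. Polysomal mRNA of full astrocytes (Astro) was compared with that of perisynaptic astrocytic processes (PAP), the fine branches that astrocytes send to synapses. The labels name 3 animals, C1 to C3 (animals 1 to 3 here), and each gave both compartments. For every pair of animal and compartment the counts of 8 technical replicates were summed, so that 48 deposited samples gave 6 libraries and n = 3 in each compartment. All groups shared the transgene and the tissue, no treatment was named, and the age, the sex and the fractionation that yielded the PAP material are not given in the sources used here.

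Neuroligins are membrane proteins that bind neurexins of the presynaptic membrane across the cleft. They were first studied as postsynaptic proteins of neurons, and astrocytes also make them and use them in the growth of their branches against neurons. NrCAM of astrocytes has been linked to the contact of their processes with inhibitory synapses. NCAM1, CADM1 and the IgLON proteins belong to the immunoglobulin superfamily and bind themselves or relatives on the neighbouring cell, and ephrin-B3 is a membrane-bound ligand of Eph receptors.

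Several of these genes have close relatives, and reads from a stretch that is identical in both cannot be assigned to 1 gene. The coding sequences of GENCODE M21 on GRCm38 were therefore searched, and all positions given here are on this build. Untranslated exon parts, pseudogenes and genes outside the lists used here were not searched. Read assignment over the whole exonic length was thus not checked. For each gene, the longest identical coding run with the other members of its family was taken. The longest was 95 bases, at the start of the coding sequence, in exon 1 of both Ntm (chr9:29411628-29411722, minus strand) and its neighbour Opcml (chr9:28404246-28404340, plus strand). The start codon is in capitals.
Ntm and Opcml: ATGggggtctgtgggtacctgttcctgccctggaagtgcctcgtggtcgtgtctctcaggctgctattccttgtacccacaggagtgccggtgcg
Of all distinct stretches of 50 bases in the coding sequences of the annotated Ntm transcripts, 3.72% were shared with Opcml. Opcml held far fewer counts than Ntm, 145, 47 and 80 for animals 1 to 3 in Astro and 9, 49 and 0 in PAP.

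The neuroligins shared no stretch of 50 coding bases. Nlgn3 had an identical run of 23 bases with Nlgn1 and another with Nlgn2, and Nlgn1 and Nlgn2 shared at most 17. The 60 coding bases around the run of Nlgn1 and Nlgn3 show how the family differs. They lie in exon 7 of 8 at chr3:25436336-25436395 (Nlgn1, minus strand), chr11:69827227-69827286 (Nlgn2, minus strand) and chrX:101318176-101318235 (Nlgn3, plus strand), and capitals mark positions that are not the same in all 3 genes.
Nlgn1: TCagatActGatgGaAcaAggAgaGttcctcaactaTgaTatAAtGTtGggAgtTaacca
Nlgn2: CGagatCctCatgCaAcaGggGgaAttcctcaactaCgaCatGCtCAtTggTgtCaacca
Nlgn3: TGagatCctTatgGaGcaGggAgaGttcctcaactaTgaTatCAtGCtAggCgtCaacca
All 3 genes were identical at 42 of the 60 positions. Nlgn1 matched Nlgn3 at 50 positions and Nlgn2 at 43. For the other genes the longest runs were 23 bases (Cadm1 with Cadm4), 22 (Efnb3 with Efnb1), 20 (Nrcam with Nfasc), 18 (Lsamp with Negr1) and 14 (Ncam1, with several relatives). Overlapping annotation is a separate limit. Nlgn3 shares 3823 bases, 41.24% of its exonic length, with the processed transcript Gm21986 on the same strand, which held 2061 counts in Astro and 226 in PAP. How reads in that overlap were counted is not given in the sources used here, so the counts and the level per length of Nlgn3 may be too low. The strand setting is not given either. Ncam1 and Nlgn1 overlap antisense genes over 4.81% (Gm11149) and 9.16% (A830092H15Rik) of their exonic lengths.

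The Astro libraries held 18707844 to 20293538 counts and the PAP libraries 1829962 to 2980984. Levels are given as CPM, the counts of a gene divided by the library total and set to a common scale, with TMM factors, which correct for library composition. A floor of 3 counts corresponded to 0.152 to 0.176 CPM in Astro and 0.991 to 1.55 CPM in PAP. Depth and compartment cannot be told apart at full depth, and fits on libraries thinned to 1 depth are among the alternatives. Libraries of the 3 animals differed more in PAP: the biological coefficient of variation over the tested genes was 1.57 there, against 0.335 for Astro. With 1 library per animal and compartment, the animals and the preparation of their libraries cannot be told apart. In bulk RNA, fewer tagged cells or processes and less RNA in each cannot be told apart.

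The comparison asks which mRNAs on astrocyte ribosomes are more or less abundant in the processes than in the whole cell. None of the 9 adhesion genes passed that test. All 9 entered the edgeR quasi-likelihood test of 14618 genes, in which a gene was called at a Benjamini-Hochberg adjusted p under 0.05. Among all tested genes 15.4% were called lower and 5.92% higher in PAP. Of the adhesion genes 0 were called in either direction, and 0 had an unadjusted p under 0.05, as 4519 of the 14618 genes did. With the animal as a block 0 were called, where 0.91% of all tested genes were (128 higher and 5 lower). DESeq2 called 0 too, against 27.2% of the genes it tested. The median log2 fold change of the 9 genes, PAP minus Astro, was -0.40, beside -0.53 for all tested genes, with 4 positive and 5 negative values. With the animal as a block it was -1.52, beside -1.63, with 1 positive and 8 negative values, and 75.0% of all tested genes were then negative. The intervals given below reach from several-fold lower to several-fold higher in PAP for most of these genes, so equal levels were not shown either.

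**Figure D1:**
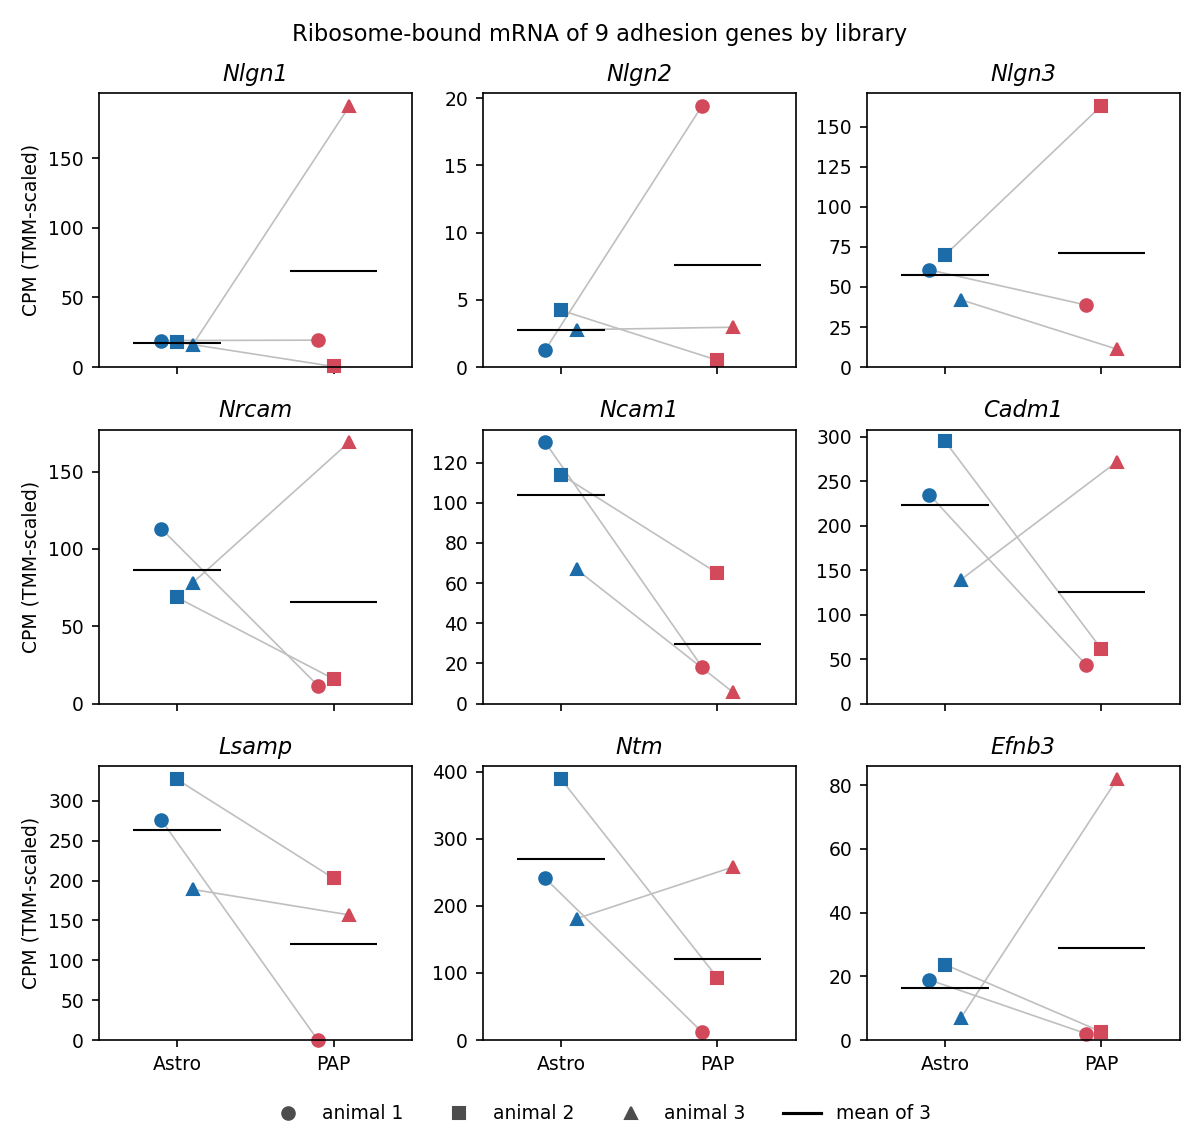
Level of each adhesion gene in CPM scaled by TMM factors (vertical axes, linear, 1 scale per gene) in Astro (blue) and PAP (red). Each point is the library of 1 animal, grey lines join the libraries of an animal, and black bars are means of 3: the highest Astro point is 1.2 times (Nlgn1) to 3.48 times (Efnb3) the lowest, and the PAP points of each gene lie further apart in ratio.

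Of the neuroligins, Nlgn1 (ENSMUSG00000063887, chr3:25426215-26332460) gave 356, 306 and 315 counts in Astro animals 1 to 3, or 19.1, 18.0 and 16.0 CPM. Its PAP counts were 38, 1 and 566, or 19.4, 0.515 and 187 CPM. Astro was nearly flat across animals, while PAP was at the Astro level in animal 1, under the floor in animal 2 and far above every Astro library in animal 3. The Astro mean was 17.7 ± 1.58 CPM (SD, n = 3) and the PAP mean 69.0 ± 103 CPM (SD, n = 3). The log2 fold change was 1.96 ± 1.60 (SE; 95% interval -1.88 to 5.81; edgeR adjusted p = 0.501). Without PAP animal 3 it was -0.89, so its sign rested on that library. With the animal as a block the log2 fold change was -0.11, and 0.38 at equal depth. At the Astro mean level, PAP animal 2 would have held 34.3 counts rather than 1.

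Nlgn2 (ENSMUSG00000051790, chr11:69823122-69837784), the neuroligin that neurons place at inhibitory synapses, was scarce. Astro held 24, 72 and 55 counts (1.29, 4.23 and 2.79 CPM) and PAP 38, 1 and 9 counts (19.4, 0.515 and 2.97 CPM). PAP animal 1 exceeded all Astro libraries, PAP animal 3 lay among them, and PAP animal 2 was under the floor. The means were 2.77 ± 1.47 CPM in Astro and 7.63 ± 10.3 CPM in PAP (SD, n = 3 each), and the log2 fold change was 1.45 ± 1.28 (SE; 95% interval -1.64 to 4.54; edgeR adjusted p = 0.541). Without PAP animal 1 it was -0.64. At the Astro level the PAP libraries would hold 5.37 to 8.38 counts, so a lower level in PAP was hardly detectable at this depth.

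Nlgn3 (ENSMUSG00000031302, chrX:101299168-101325963) was the most counted neuroligin in Astro, with 1130, 1189 and 829 counts (60.7, 69.8 and 42.1 CPM). Its PAP libraries held 76, 317 and 34 counts (38.8, 163 and 11.2 CPM). PAP animal 2 stood above every Astro library and the other PAP libraries below every one. The means were 57.5 ± 14.1 CPM in Astro and 71.1 ± 81.1 CPM in PAP (SD, n = 3 each), with a log2 fold change of 0.31 ± 0.96 (SE; 95% interval -2.01 to 2.62; edgeR adjusted p = 0.886). The value was -1.27 without PAP animal 2 and -0.45 with the animal as a block. In PAP, Nlgn1, Nlgn2 and Nlgn3 each peaked in a different animal, animals 3, 1 and 2 in that order.

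The neurexins, the neuronal partners of neuroligins, are also made by astrocytes. Nrxn2 gave 42.1, 54.7 and 35.4 CPM in Astro and 3.57, 14.9 and 8.26 CPM in PAP. Its groups did not overlap, as in the 35.1% of all tested genes with PAP wholly below Astro. Its log2 fold change of -2.30 did not pass in edgeR (edgeR adjusted p = 0.114). DESeq2 called Nrxn2 lower (DESeq2 adjusted p = 0.00751), beside 27.2% of the genes it tested called in either direction. Nrxn3 had 5.26, 12.6 and 8.73 CPM in Astro and 29.1, 104 and 2.31 CPM in PAP (log2 fold change 2.35, edgeR adjusted p = 0.309).

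Nrcam (ENSMUSG00000020598, chr12:44328885-44601964) encodes a member of the L1 family that binds ankyrins inside the cell. It gave 2099, 1169 and 1537 counts in Astro (113, 68.6 and 78.0 CPM) and 23, 31 and 511 counts in PAP (11.7, 16.0 and 169 CPM). PAP animals 1 and 2 were below every Astro library and PAP animal 3 was above every one. The means were 86.5 ± 23.3 CPM in Astro and 65.5 ± 89.5 CPM in PAP (SD, n = 3 each). The log2 fold change was -0.40 ± 1.06 (SE; 95% interval -2.96 to 2.16; edgeR adjusted p = 0.865). Without PAP animal 3 it was -2.71 and passed the threshold (edgeR adjusted p = 0.0222), whereas without PAP animal 1 it was 0.05. PAP animal 3 held the highest PAP level of Nrcam, and 4586 of 16523 tested genes were called without it. The call therefore is no support for a lower level of Nrcam.

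Ncam1 (ENSMUSG00000039542, chr9:49502136-49798925) encodes the neural cell adhesion molecule that carries polysialic acid. Astro held 2421, 1935 and 1315 counts (130, 114 and 66.8 CPM) and PAP 36, 126 and 17 counts (18.4, 64.9 and 5.62 CPM). PAP was lower than Astro in 3 of 3 animals, and among the 9 genes only Ncam1 had groups that did not overlap. Of all tested genes, 35.1% had PAP wholly below Astro and 10.9% wholly above. The gap was narrow: the highest PAP value was 64.9 CPM beside the lowest Astro value of 66.8 CPM, and the groups overlapped when scaled by library totals alone (68.7 and 67.4) or by DESeq2 size factors (66.0 and 63.9). The means were 103 ± 32.8 CPM in Astro and 29.6 ± 31.2 CPM in PAP (SD, n = 3 each). The log2 fold change of -1.81 ± 0.93 (SE; 95% interval -4.05 to 0.44) did not pass (edgeR adjusted p = 0.262). Without PAP animal 2 it was -3.18 and passed (edgeR adjusted p = 0.0385). PAP animal 2 held the highest PAP level of Ncam1, and 4037 of 16431 tested genes were called without it. The call therefore is no support for a lower level of Ncam1.

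Around these genes, the 15 other genes of the L1 and NCAM families, contactins and their ankyrin partners gave 12 tested genes, of which 0 were called in either direction (15.4% lower and 5.92% higher among all tested genes) and 2, Ank2 and Cntn3, had an unadjusted p under 0.05 (4519 of 14618). Ank2, the ankyrin with the highest Astro level per length in this list, had 765, 419 and 598 CPM in Astro and 138, 162 and 416 CPM in PAP (log2 fold change -1.32, edgeR adjusted p = 0.133), with PAP wholly below Astro. PAP lay wholly above Astro for 2 of the 12 genes, named here after their values were seen, and wholly below for Ank2 alone, beside 10.9% and 35.1% of all tested genes. Cntn3 had 2.04, 0.176 and 1.68 CPM in Astro and 5.10, 88.1 and 3.97 CPM in PAP (log2 fold change 4.63, edgeR adjusted p = 0.129). Cntnap2 had 24.6, 36.6 and 18.5 CPM in Astro and 43.4, 97.4 and 50.6 CPM in PAP (log2 fold change 1.26, edgeR adjusted p = 0.26). Cntn1, a contactin that neurons and glia carry on a lipid anchor, had 144, 157 and 83.8 CPM in Astro and 139, 37.6 and 172 CPM in PAP (log2 fold change -0.14, edgeR adjusted p = 0.918).

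Cadm1 (ENSMUSG00000032076, chr9:47530173-47857637) encodes SynCAM1, which binds itself and other SynCAMs across the cleft. It gave 4371, 5025 and 2737 counts in Astro (235, 295 and 139 CPM) and 86, 119 and 823 counts in PAP (43.9, 61.3 and 272 CPM). PAP animal 3 lay inside the Astro range and the other PAP libraries below it. The means were 223 ± 78.6 CPM in Astro and 126 ± 127 CPM in PAP (SD, n = 3 each), and the log2 fold change was -0.82 ± 0.76 (SE; 95% interval -2.65 to 1.00; edgeR adjusted p = 0.561). Without PAP animal 3 it was -2.15 and passed (edgeR adjusted p = 0.0286). PAP animal 3 held the highest PAP level of Cadm1, and 4586 of 16523 tested genes were called without it. The call therefore is no support for a lower level of Cadm1. Its relative Cadm4 had 48.6, 49.9 and 20.4 CPM in Astro and 17.3, 16.0 and 41.6 CPM in PAP, again with animal 3 the highest of the PAP libraries. Of 8 further SynCAM, nectin and binding-partner genes, 7 were tested and 0 were called (15.4% lower and 5.92% higher among all tested genes), with 0 at an unadjusted p under 0.05 (4519 of 14618).

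The IgLON proteins are lipid-anchored and pair with one another. Lsamp (ENSMUSG00000061080, chr16:39984361-42181679) had 5129, 5569 and 3725 counts in Astro (276, 327 and 189 CPM). In PAP it had 0, 393 and 476 counts (0, 203 and 157 CPM). At the Astro level PAP animal 1 would have held 517 counts, and none of its 8 technical replicates held 1. With 3 counts as the limit that a count of 0 allows, PAP animal 2 was at least 132-fold above PAP animal 1. PAP was lower than Astro in 3 of 3 animals, although PAP animal 2 lay inside the Astro range. The means were 264 ± 69.6 CPM in Astro and 120 ± 106 CPM in PAP (SD, n = 3 each), and the log2 fold change was -1.14 ± 1.50 (SE; 95% interval -4.76 to 2.48; edgeR adjusted p = 0.702). It was -0.59 without PAP animal 1.

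Ntm (ENSMUSG00000059974, chr9:28994750-29963141), whose first coding exon shares the run shown above with Opcml, had 4486, 6625 and 3557 counts in Astro (241, 389 and 181 CPM) and 24, 180 and 781 counts in PAP (12.2, 92.8 and 258 CPM). PAP animal 3 lay inside the Astro range, and PAP animals 1 and 2 below it. The means were 270 ± 107 CPM in Astro and 121 ± 125 CPM in PAP (SD, n = 3 each), and the log2 fold change was -1.16 ± 0.96 (SE; 95% interval -3.47 to 1.16; edgeR adjusted p = 0.512). It was -2.43 without PAP animal 3 and did not pass there. Of the 3 other IgLON genes, Opcml and Negr1 were tested and 0 were called, with 0 at an unadjusted p under 0.05 (over all tested genes the shares are those given for the SynCAM list), and Iglon5 was below the count filter.

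Efnb3 (ENSMUSG00000003934, chr11:69554092-69560205) encodes ephrin-B3, a transmembrane ligand that can also signal into the cell that carries it. It gave 351, 404 and 134 counts in Astro (18.9, 23.7 and 6.8 CPM) and 4, 5 and 248 counts in PAP (2.04, 2.58 and 81.9 CPM). PAP animals 1 and 2 were below every Astro library, and PAP animal 3 was above every one although Astro was lowest in that animal. The highest PAP level was 40.2 times the lowest, against 3.48 times in Astro. The means were 16.5 ± 8.7 CPM in Astro and 28.9 ± 46.0 CPM in PAP (SD, n = 3 each), with a log2 fold change of 0.81 ± 1.53 (SE; 95% interval -2.87 to 4.50; edgeR adjusted p = 0.799). The sign turned to -2.89 without PAP animal 3 and to -1.62 with the animal as a block, and neither value passed.

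**Figure D2:**
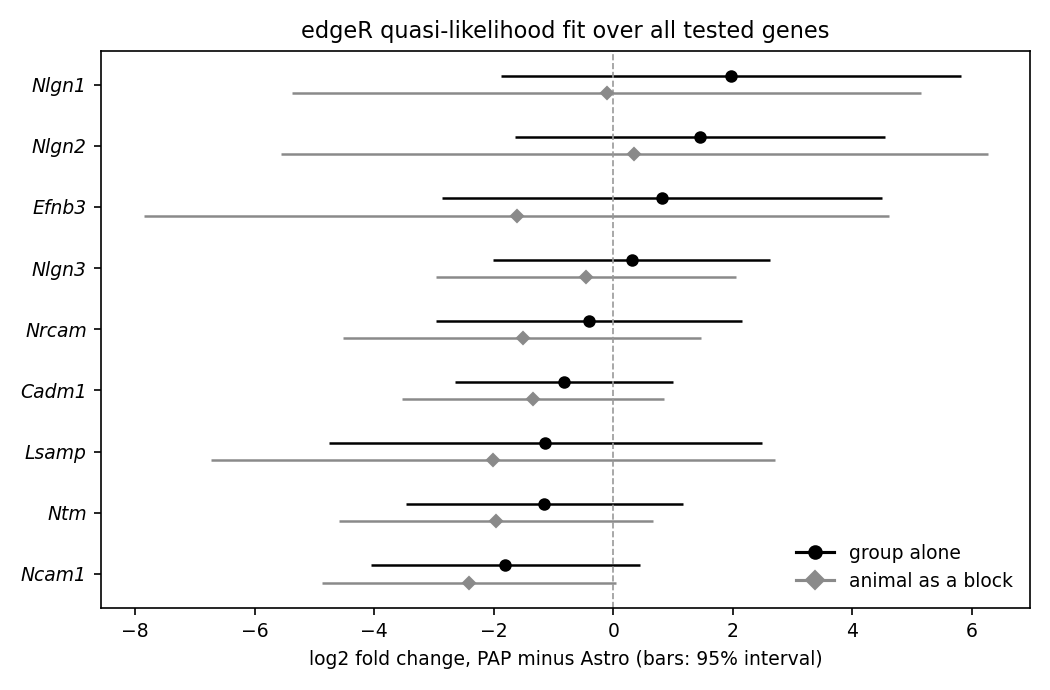
Log2 fold change of each adhesion gene, PAP minus Astro (horizontal axis), with 95% intervals from the edgeR quasi-likelihood fit without (black circles) and with (grey diamonds) the animal as a block. All 18 intervals include 0, and the block moves the 9 values down, while the median of all tested genes is -0.53 without it and -1.63 with it.

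**Figure D3:**
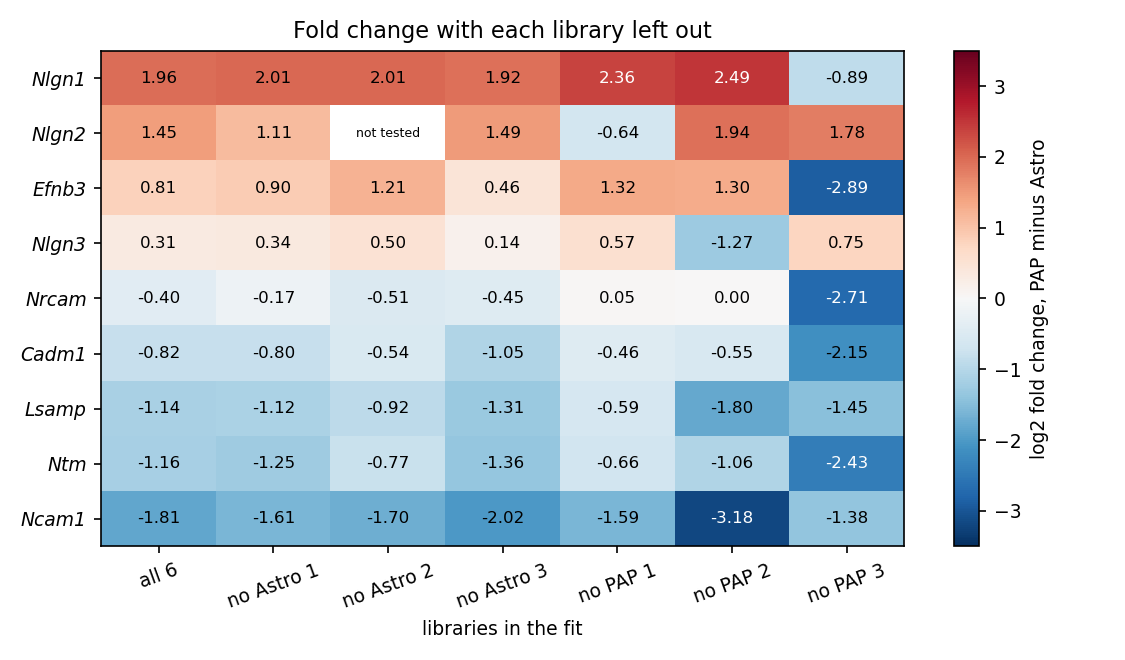
Log2 fold change, PAP minus Astro, of each adhesion gene (rows) with all 6 libraries and with each library left out in turn (columns), as numbers and on a colour scale. Leaving out an Astro library kept the sign of every gene (Nlgn2 was not tested without Astro animal 2), and leaving out a PAP library turned the sign of Nlgn1, Nlgn2, Nlgn3, Nrcam or Efnb3.

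Levels of different genes were compared per kilobase of exonic length. In Astro the order of mean levels was Ntm with 33.4 ± 13.3 CPM per kb (SD, n = 3), Cadm1 with 21.3 ± 7.53, Lsamp with 15.3 ± 4.04, Ncam1 with 11.9 ± 3.79, Nrcam with 6.47 ± 1.74, Nlgn3 with 6.20 ± 1.52, Efnb3 with 5.17 ± 2.73, Nlgn1 with 1.32 ± 0.118 and Nlgn2 with 0.479 ± 0.254. From Ntm to Efnb3, each gene's range over the 3 animals overlapped that of the gene before it. Nlgn1 lay wholly below Efnb3, and Nlgn2 wholly below Nlgn1. Nlgn3 was thus the highest neuroligin in whole astrocytes, with a range of 4.54 to 7.53 CPM per kb against 1.19 to 1.42 for Nlgn1.

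In PAP the order was Ntm with 15.0 ± 15.5 CPM per kb (SD, n = 3), Cadm1 with 12 ± 12.2, Efnb3 with 9.07 ± 14.4, Nlgn3 with 7.67 ± 8.75, Lsamp with 6.97 ± 6.18, Nlgn1 with 5.14 ± 7.65, Nrcam with 4.91 ± 6.70, Ncam1 with 3.42 ± 3.60 and Nlgn2 with 1.32 ± 1.77. Each range overlapped that of the gene before it, so this order is not resolved at n = 3.

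**Figure D4:**
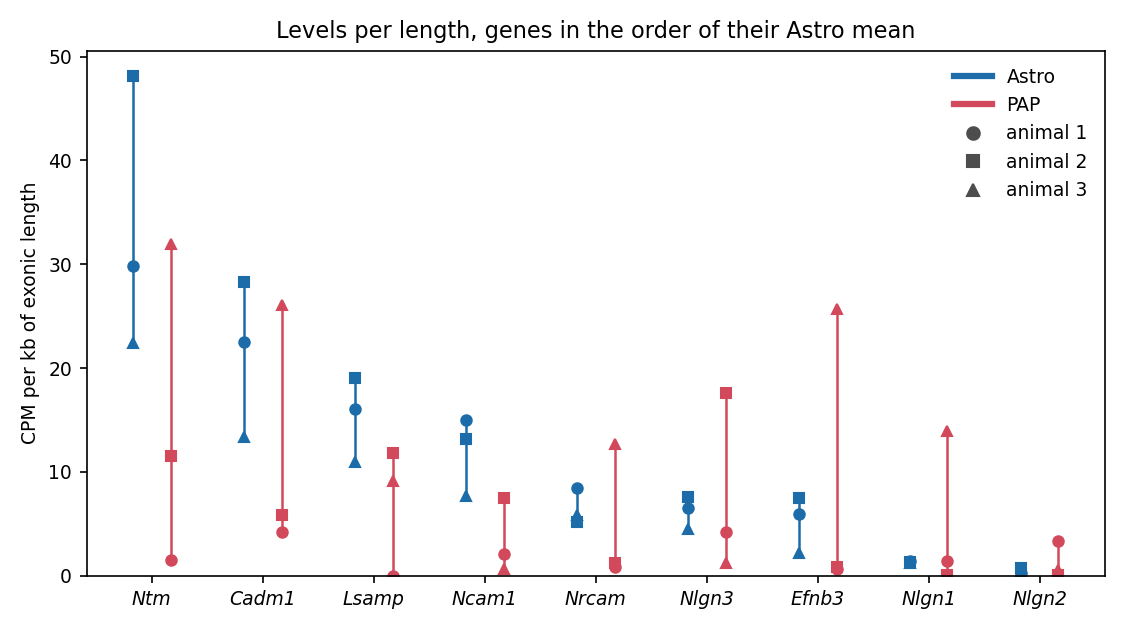
Level of each adhesion gene in CPM per kilobase of exonic length (vertical axis, linear), genes in the order of their Astro mean; points are animals and vertical lines span the 3 animals of Astro (blue) and PAP (red). Nlgn1 and Nlgn2 sit lowest in Astro, at 1.32 and 0.479 CPM per kb on average, and the PAP ranges of neighbouring genes overlap throughout.

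Technical replicates of the same PAP library lay close together. Nlgn1 gave 53 to 88 counts in each of the 8 technical replicates of PAP animal 3, whereas PAP animal 2 had 1 count in 1 of 8. Nrcam gave 55 to 74 counts per technical replicate in PAP animal 3 and 0 to 7 in PAP animal 1. For Efnb3 the replicates of PAP animal 3 held 23 to 42 counts and those of PAP animals 1 and 2 held 0 to 2. Lsamp was at 0 in all 8 replicates of PAP animal 1 and at 39 to 58 counts in those of PAP animal 2. Over the 36 combinations of gene and library with at least 80 counts, the variance of the technical replicates divided by its expectation from counting noise had a median of 1.03 and ran from 0.29 to 2.26. How the technical replicates were made is not given in the sources used here, and repeat reads of 1 library would give such values, so they say nothing of the steps before it.

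**Figure D5:**
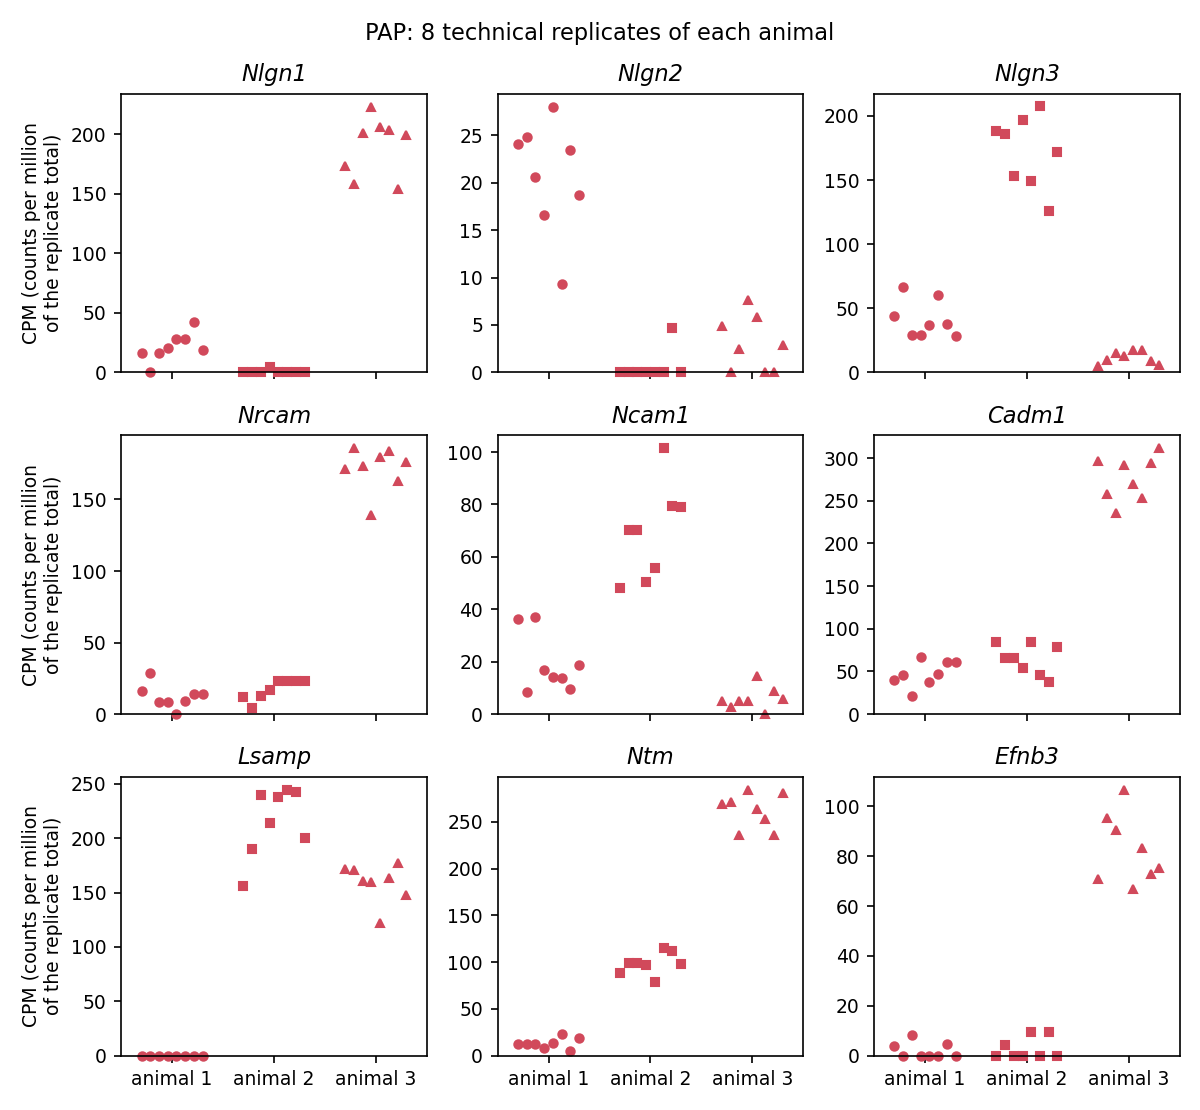
Level of each adhesion gene in the 8 technical replicates of each PAP animal, in CPM of the replicate's own total (vertical axes, linear, 1 scale per gene). Replicates of an animal cluster while the libraries of the animals differ: Lsamp is at 0 in all 8 of animal 1, and Nlgn1, Nrcam and Efnb3 are high in all 8 of animal 3.

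Across the 9 genes PAP was highest in animal 3 for 5 (Nlgn1, Nrcam, Cadm1, Ntm and Efnb3), in animal 2 for Nlgn3, Ncam1 and Lsamp, and in animal 1 for Nlgn2. Animal 3 was highest in 31.2% of all tested genes. In the 6 genes with more than 3 counts in every PAP library, the highest PAP level was 6.2 times (Cadm1) to 40.2 times (Efnb3) the lowest. In Astro the highest level was 1.2 times (Nlgn1) to 3.48 times (Efnb3) the lowest, with a median of 1.95, beside 1.53 for all tested genes. More than 3 counts in every PAP library were found for 6 of the 9 genes and for 39.6% of all tested genes. The summed level of the 9 genes was 1094, 1308 and 721 CPM for animals 1 to 3 in Astro and 166, 605 and 1145 CPM in PAP. PAP animal 3 lay inside the Astro range and PAP animals 1 and 2 below it.

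The wider adhesion families held 83 further genes, of which 68 were tested, 6 were called lower in PAP and 0 higher, beside 15.4% lower and 5.92% higher among all tested genes. Each of these 6 had at most 1 count over the 3 PAP libraries and entered the test only through its Astro counts, so lower was the only direction open to it and the calls are no support for a direction. The median log2 fold change of the 68 tested genes was -0.50, with 29 positive and 39 negative values, beside -0.53 and 60.9% negative for all tested genes. With the animal as a block it was -1.73, with 16 positive and 52 negative, beside -1.63 and 75.0% negative for all tested genes. More than 3 counts in every PAP library were found for 18 of the 68 (26.5%), beside 39.6% of all tested genes. With the animal as a block 0 of the 6 were called, at an adjusted p of 0.206 each, and DESeq2 called 12 of 75, all lower, beside 27.2% of all genes it tested. Leaving out any 1 of the 3 Astro libraries left 0 called, where 115 to 140 genes were called in all, and at equal depth 1 of 44 tested was called, where 1696 of 11234 were.

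Among neuroligin partners and other synaptic organisers, 22 of 25 genes were tested and 2 were called, both lower, beside 15.4% called lower among all tested genes. Lrrtm2, a postsynaptic neurexin ligand, had 303, 271 and 170 counts in Astro and 0, 0 and 1 in PAP (edgeR adjusted p = 0.0208). By counts scaled to library size, Astro was 93.1 times PAP, with an exact 95% counting interval of 16.7 to 3682. Ntng2, a netrin-like ligand on axons, had 21, 44 and 30 counts in Astro and 0 in every PAP library, at least 1.29-fold lower against the floor (edgeR adjusted p = 0.0228). Ptprs, a receptor phosphatase of axons named for its Astro level per length, had 141, 136 and 113 CPM in Astro and 146, 255 and 46.9 CPM in PAP (log2 fold change 0.20, edgeR adjusted p = 0.883).

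Among ephrins and Eph receptors, 15 of 21 genes were tested and 3 were called, all lower and all at 0 counts in every PAP library, again beside 15.4%, so they too could only be lower. Ephb4, a receptor of B ephrins, had 95, 139 and 148 counts in Astro, so that PAP was at least 5.11-fold lower against the floor of 3 counts per library (edgeR adjusted p = 0.0208). Efnb1, the gene closest to Efnb3 in the run search, had 44, 76 and 67 counts in Astro, and PAP was at least 2.51-fold lower (edgeR adjusted p = 0.0208). Efna3, a lipid-anchored ephrin, had 26, 71 and 70 counts in Astro, and PAP was at least 2.24-fold lower (edgeR adjusted p = 0.0244). Ephb1, with the highest Astro level per length of this list, gave 38.1, 65.8 and 30.7 CPM in Astro and 5.10, 55.7 and 8.26 CPM in PAP (log2 fold change -0.96, edgeR adjusted p = 0.638). Efna2 followed it with 12.9, 13.2 and 8.07 CPM in Astro and 0, 0 and 30.7 CPM in PAP (log2 fold change -0.14, edgeR adjusted p = 0.977).

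Of the latrophilins, teneurins and FLRT genes, which bind one another across synapses, 10 of 11 were tested and 1 was called, lower in PAP, beside the same 15.4%. Flrt3, a ligand of latrophilins, had 143, 150 and 109 counts in Astro and 0, 0 and 1 in PAP (edgeR adjusted p = 0.0208), a ratio of 50.3 with an exact 95% counting interval of 8.98 to 1992. Adgrl1, a latrophilin, had 30.9, 47.5 and 32.7 CPM in Astro and 24.0, 56.2 and 56.5 CPM in PAP (log2 fold change 0.30, edgeR adjusted p = 0.827). Tenm3, a teneurin, had 27.4, 24.7 and 25.0 CPM in Astro and 58.7, 0.515 and 0 CPM in PAP (log2 fold change -0.38, edgeR adjusted p = 0.932).

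Markers of the labelled cells and of their neighbours were read beside these values. The summed level of 15 astrocyte markers was 26157 to 35793 CPM in Astro and 4143, 9329 and 15892 CPM in PAP animals 1 to 3. It was highest in PAP animal 3 and lowest in PAP animal 1, as was the summed level of the adhesion genes. Aldh1l1, whose promoter drives the tag, had 232, 224 and 250 CPM in Astro and 50, 83.5 and 110 CPM in PAP. Of the 15 markers 6 were called lower in PAP, beside 15.4% of all tested genes, and 0 were at 0 in every PAP library. The 16 neuron markers, whose cells also make most of the adhesion genes described here, summed to 1192 to 1970 CPM in Astro and to 545.5, 1595 and 1294 CPM in PAP animals 1 to 3, with 1 called higher (Syt1), 1 lower (Snap25), beside 5.92% and 15.4% of all tested genes, and 0 at 0 in every PAP library. The 10 oligodendrocyte lineage markers summed to 799 to 867 CPM in Astro and 498 to 1016 CPM in PAP.

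The 8 microglia markers summed to 42.1 to 89.3 CPM in Astro and 21.5 to 60.7 CPM in PAP, where Cx3cr1, P2ry12, Tmem119 and Aif1 were at 0 in every library. The former 3 were called lower (3 of 7 tested, beside 15.4% of all tested genes) and entered the test only through Astro. C1qb had 26.0, 29.9 and 0 CPM in PAP and 6.70 to 9.51 CPM in Astro, and C1qa had 16.5 CPM in PAP animal 3 and at most 3.87 CPM in Astro. The 9 endothelial and mural markers summed to 22.9 to 43.8 CPM in Astro and 15.5 to 24.5 CPM in PAP, with Cldn5, Cdh5, Rgs5 and Pdgfrb at 0 in every PAP library and 1 of 3 tested, Pdgfrb, called lower, which also entered the test only through Astro. Their PAP sum in animals 1 and 3 came mostly from Ly6c1, with 23.0, 3.09 and 12.9 CPM in PAP and 1.45, 1.88 and 1.73 CPM in Astro, and that of animal 2 from Tek with 11.3 CPM. The 5 B-lineage markers summed to 12.3 to 22.8 CPM in Astro and 1134 to 2623 CPM in PAP, most of it from Jchain. Jchain and Ms4a1 were called higher in PAP, 2 of 3 tested, beside 5.92% of all tested genes. Ms4a1 had 66.3, 145 and 34.4 CPM in PAP and 1.67, 0.939 and 0 in Astro, and Cd79b had 41.3, 13.9 and 1.98 CPM in PAP and at most 0.645 in Astro. Cd79a, with 2 counts in each Astro library, was at 0 in every PAP library. The part of astrocyte RNA content, neurons, oligodendrocyte lineage cells and B-lineage RNA in the levels of the adhesion genes was not tested.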

How the data were processed

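The deposited values are counts per gene from polysomal RNA, whole numbers that the authors did not scale, per the file headers and values. Per the labels' protocols, RNA was cleaned over columns without antibody and with nonspecific mouse IgG before the pulldown, amplified with a SMART-Seq v4 low-input kit and made into libraries with Nextera XT. The submitters' processing notes name bcl2fastq 2.18.0.12, Trim Galore 0.4.1, STAR 2.5.2b, SAMtools, HTSeq 0.5.3 and mm10. The strand setting and the handling of reads that match several genes are not given in the sources used here. No molecular identifiers are mentioned, so the floors and the exact counting intervals cover counting error only. The intervals of the log2 fold changes come from the edgeR quasi-likelihood fits and also include the spread between the libraries of a compartment.

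Counts were summed over the 8 technical replicates of a library. Genes passing filterByExpr (minimum count 10) were tested in R 4.3.3 with the quasi-likelihood test of edgeR 4.0.16, with TMM factors, group as the only term and Benjamini-Hochberg adjustment. DESeq2 1.42.0 and the same edgeR model with animals as blocks were alternatives. The same animals gave both compartments, per the labels, which is where the pairing comes from: deviations of same-animal libraries from their group means correlated at 0.033, 0.018 and -0.027 over 14618 genes. Nothing in the labels says how the technical replicates were made, and animals are the replicates of every p-value. The fits were tested on simulated counts first.

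Symbols, positions, exonic lengths and coding sequences came from GENCODE M21 on GRCm38 (the build called mm10), in which 47224 of 47643 IDs were found. The genes named are the 9 adhesion genes, Nrxn2 and Nrxn3, from each wider family list the called genes (at most 5) and the 2 genes with the highest Astro level per kilobase. Not every gene that fits this rule is reported here. Opcml was added for its shared run, and Cntn3 and Cntnap2 for PAP lying wholly above Astro, all after their values were seen. The 9 genes and all lists were chosen with earlier results of these data known.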

Additional observations from a re-analysis of the deposited data

How the results depend on the processing

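The replicate block (the animal as a block) changed the calls among all tested genes from 865 higher and 2250 lower in PAP to 128 higher and 5 lower. Without 1 Astro library, 114 to 135 were called higher and 1 to 5 lower. With the block the count of genes called went from 3115 to 133 (169 at equal depth). That count was 4750 with the DESeq2 Wald test, 1414 with a mean of at least 100 counts, 1696 with libraries thinned to equal depth, 163 at an adjusted p under 0.01, and 115 to 4586 with 1 library left out (115 to 140 without an Astro library, 4037 to 4586 without a PAP library). The 6 wider adhesion genes called became 0 with the replicate block, at full and at equal depth, 12 with DESeq2, 1 with a mean of at least 100 counts, 1 at equal depth, 0 at an adjusted p under 0.01 and 0 to 13 with 1 library left out. Of the 9 adhesion genes 0 were called under every alternative except leaving out 1 library, which gave 0 to 2: Ncam1 without PAP animal 2, and Nrcam and Cadm1 without PAP animal 3. In each case the library left out held that gene's highest PAP level. Of all tested genes, 4037 of 16431 were called without PAP animal 2 and 4586 of 16523 without PAP animal 3. The sign of the log2 fold change turned with the replicate block for Efnb3 (-1.62, and -1.23 at equal depth), Nlgn1 (-0.11, but 0.38 at equal depth) and Nlgn3 (-0.45, and -0.01 at equal depth), and the block changed no other call or sign of these 9 genes. With 1 library left out the values ran from -2.89 to 1.32 for Efnb3, -0.89 to 2.49 for Nlgn1, -0.64 to 1.94 for Nlgn2, -1.27 to 0.75 for Nlgn3 and -2.71 to 0.05 for Nrcam. Cadm1, Lsamp, Ncam1 and Ntm kept a negative value under all 16 alternatives. The cause of these changes was not tested. Library totals alone moved the median over all tested genes from -0.53 to -0.37 (log2) and that of the 9 genes from -0.40 to -0.28, with 4 positive and 5 negative values under each scaling. Nlgn2 had too few counts to be fitted at equal depth, with a mean of at least 100 counts or without Astro animal 2.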
